A study of Mus musculus with 6 samples.

Results

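The regions described here are the CUT&Tag regions annotated as lying 1 to 2 kb upstream of a transcript start site in primary cardiac fibroblasts of the mouse. They were taken from 4 deposited tables of regions by the annotation column alone, which holds the entry Promoter (1-2kb) for 7491 of 456310 region entries, or 1.64%. Coordinates are those of the tables, which follow GRCm39. The same stretch of chromatin can be listed in more than 1 table, so these are entries and not separate loci. The tables cover 6 libraries in 2 sets, with 1 library per group and no replicates. The T set holds NC-T (control), T-T (TGF-b) and SI-T (TGF-b+SiTAZ), and the S set holds NC-S (control), T-S (TGF-b) and SI-S (TGF-b+SiSRF). Within each set 1 table compares TGF-b with NC and another compares the siRNA library with TGF-b alone. From the study's text the T set was read as a profile of TAZ and the S set as a profile of SRF, although the labels do not name the antibody. The labels give TAZ and SRF as the siRNA targets, whereas the study's text describes an siRNA against Piezo2, and CUT&Tag reads do not measure whether either transcript was depleted. The design text of the series speaks of a Tet3 knockout, which no label of these libraries names. No age, strain or sex is given in the labels for the animals from which the cells came, and nothing in the labels separates cultures, so every difference below is a difference between 2 libraries.

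Cardiac fibroblasts turn into contractile, matrix-secreting myofibroblasts when exposed to TGF-b. TAZ is a coactivator of the Hippo pathway that has no DNA-binding domain and reaches chromatin through TEAD factors, which recognise the core GGAATG. SRF binds the CArG box and drives cytoskeletal and smooth muscle genes with its cofactors of the myocardin family. The core promoter around a start site is where the transcription machinery assembles, and the stretch 1 to 2 kb further upstream often holds proximal regulatory elements or merely flanking chromatin.

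The value used throughout is the normalized read density of each table, in reads per kb of a 2 kb window around the region, after the authors' rescaling of 1 library to the other. Whole reads could be recovered from the densities, and the log2 ratio is always the second library over the first. Intervals are 95% intervals that cover counting error only. For a share they are Wilson intervals, for a median they are rank intervals across regions, and for a single region they come from the Wilson interval of the split of its reads. Neighbouring regions share reads and all regions of a table share 2 libraries, so none of these intervals stands for the variation between cultures. Where a library had no read, a fold is given as at least its value against a floor of 3 reads in that library; this floor takes the other count as exact, so the counting interval can reach a smaller fold. The words higher and lower below mean at least 2-fold, unless another measure is named.

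The 5 start sites below have a 1 to 2 kb region on which a result turns, and the assigned transcript begins at the RefSeq start itself. Hoxa5, Gata3, Adamts1 and Efna5 were picked for printing after their values were seen. The runs are shown because they are the start sites that the upstream regions of Smad6, Hoxa5, Gata3, Adamts1 and Efna5 lie beside. Each run gives the 250 bases before the start, 5′ to 3′, from RefSeq on GRCm38.p6, and the regions themselves lie further upstream than the bases printed. Capitals mark the GC box GGGCGG on either strand, which 32.7% of the 32851 RefSeq promoters hold in the same window. Also searched on both strands were GGAATG (12.6% of promoters), the AP-1 motif TGANTCA (6.75%) and the CArG box (1.47%), none of which is in these 5 windows, and matches of different motifs were allowed to overlap.
Smad6, chr9:64022060-64022309, minus strand: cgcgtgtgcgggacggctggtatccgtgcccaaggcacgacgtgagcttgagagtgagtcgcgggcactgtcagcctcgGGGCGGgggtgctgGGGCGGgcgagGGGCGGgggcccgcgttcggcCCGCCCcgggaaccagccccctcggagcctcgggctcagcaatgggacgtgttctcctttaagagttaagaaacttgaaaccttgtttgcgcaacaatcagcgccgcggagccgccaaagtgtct
Hoxa5, chr6:52204588-52204837, minus strand: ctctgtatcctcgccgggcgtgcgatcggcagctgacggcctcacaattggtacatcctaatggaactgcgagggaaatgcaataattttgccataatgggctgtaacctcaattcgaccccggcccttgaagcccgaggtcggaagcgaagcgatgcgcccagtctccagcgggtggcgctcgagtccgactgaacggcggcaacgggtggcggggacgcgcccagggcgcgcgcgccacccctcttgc
Gata3, chr2:9878601-9878850, minus strand: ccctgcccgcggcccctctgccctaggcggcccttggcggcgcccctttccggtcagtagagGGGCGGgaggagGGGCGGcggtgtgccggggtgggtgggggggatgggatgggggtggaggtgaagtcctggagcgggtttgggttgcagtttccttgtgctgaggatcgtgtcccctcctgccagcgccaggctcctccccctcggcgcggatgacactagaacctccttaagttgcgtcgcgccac
Adamts1, chr16:85803114-85803363, minus strand: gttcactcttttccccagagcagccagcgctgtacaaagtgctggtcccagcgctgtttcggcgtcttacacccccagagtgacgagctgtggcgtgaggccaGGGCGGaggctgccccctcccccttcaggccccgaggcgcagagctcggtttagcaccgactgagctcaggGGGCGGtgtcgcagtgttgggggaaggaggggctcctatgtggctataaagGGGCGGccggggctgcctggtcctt
Efna5, chr17:62881318-62881567, minus strand: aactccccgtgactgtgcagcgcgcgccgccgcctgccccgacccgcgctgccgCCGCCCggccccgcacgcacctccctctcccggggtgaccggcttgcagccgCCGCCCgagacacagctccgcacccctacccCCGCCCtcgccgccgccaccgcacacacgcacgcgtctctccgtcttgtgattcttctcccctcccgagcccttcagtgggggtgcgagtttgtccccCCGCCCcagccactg
The GC box occurs 4 times before Smad6, 3 times before Adamts1, 4 times before Efna5 and 2 times before Gata3, and these letters are not in the Hoxa5 window. The share of C and G in the 250 bases is 66.8% for Smad6, 63.6% for Hoxa5, 70.0% for Gata3, 65.6% for Adamts1 and 74.8% for Efna5. A match describes the sequence and is not a binding site. For the whole class no such count is given, because only 29.7% of the 2882 transcripts in the first T table matched a RefSeq start within 100 bases, too few for a check of composition or motifs. The 5 windows were not drawn to represent the class.

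The class was small, and its coverage was near that of all regions of each table. In the T set it held 2989 of 170890 regions (1.75%) for TGF-b over NC and 3013 of 180118 (1.67%) for siRNA with TGF-b over TGF-b. In the S set it held 732 of 52723 regions (1.39%) and 757 of 52579 (1.44%). Every region lay upstream, with centres between 1001 and 2000 bp from the assigned start, and no region carried an annotation of 2 to 3 kb. The median region was 95 bp long in the first T table, 85 bp in the second, 144 bp in the first S table and 142 bp in the second. Median reads per window were 10 in NC-T and 6 in T-T, 5 in T-T and 7 in SI-T for the second T table, 7 in NC-S and 9 in T-S, and 9 in T-S and 8 in SI-S. At that depth 45.6% and 54.3% of the T regions and 34.0% and 30.4% of the S regions had 3 or fewer reads in at least 1 library, beside 49.3% and 57.9% of all T regions and 27.5% and 26.8% of all S regions. The regions of the core promoter, within 1 kb of a start, had more reads, with medians of 16 in NC-T and 18 in T-T.

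By their median ratio the upstream regions lay near introns, the 3′ UTR and downstream regions, and apart from the core promoter. For TGF-b over NC in the T set their median log2 ratio was -0.74 (-0.82 to -0.65), against -0.74 (-0.76 to -0.72) in introns, 0.16 (0.14 to 0.18) in the core promoter and 0.30 (0.25 to 0.34) in the 5′ UTR. In the S set the median was -0.31 (-0.40 to -0.18), against -0.29 in introns and 0.36 (0.32 to 0.40) in the core promoter. For siRNA with TGF-b over TGF-b in the T set it was 0.92 (0.86 to 1.03), against 1.03 in introns and -0.08 (-0.11 to -0.04) in the core promoter. In the S set it was -0.07 (-0.17 to 0.07), against -0.17 (-0.19 to -0.15) in introns and 0.13 (0.11 to 0.16) in the core promoter. Regions with no gene assigned had medians of -0.80 and -0.26 for TGF-b over NC and of 1.18 and -0.35 for siRNA in the T and S sets, and for siRNA their intervals were apart from that of the upstream regions. In the second S table the 5′ UTR, at -0.010 (-0.054 to 0.079), overlapped the upstream regions. The 3′ UTR had medians of -0.69 (T) and -0.33 (S) for TGF-b over NC and of 0.97 (T) and -0.17 (S) for siRNA. Downstream regions had -0.65, -0.10, 0.97 and -0.23 in the same order, and exons -0.53, 0.028, 0.81 and -0.31. The intervals of the 3′ UTR and of downstream regions overlapped that of the upstream regions in all 4 tables. The interval of the upstream regions was apart from that of the core promoter in all 4 tables, and the interval for introns overlapped it in 3 of them and met its upper end in the second T table. The authors' scaling places regions called in both libraries of a table around 0, so the size and sign of a median depend on that reference. With the authors' line undone the median of the first S table was 0.26 (0.17 to 0.42) in place of -0.31. Relative to the median over every region of the same table, the upstream regions lay at -0.086 (-0.17 to 0.00) and -0.050 (-0.11 to 0.062) in the T set. In the S set they lay at -0.11 (-0.20 to 0.020) and 0.14 (0.046 to 0.28), and the last of these intervals lay above 0.

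**Figure D1:**
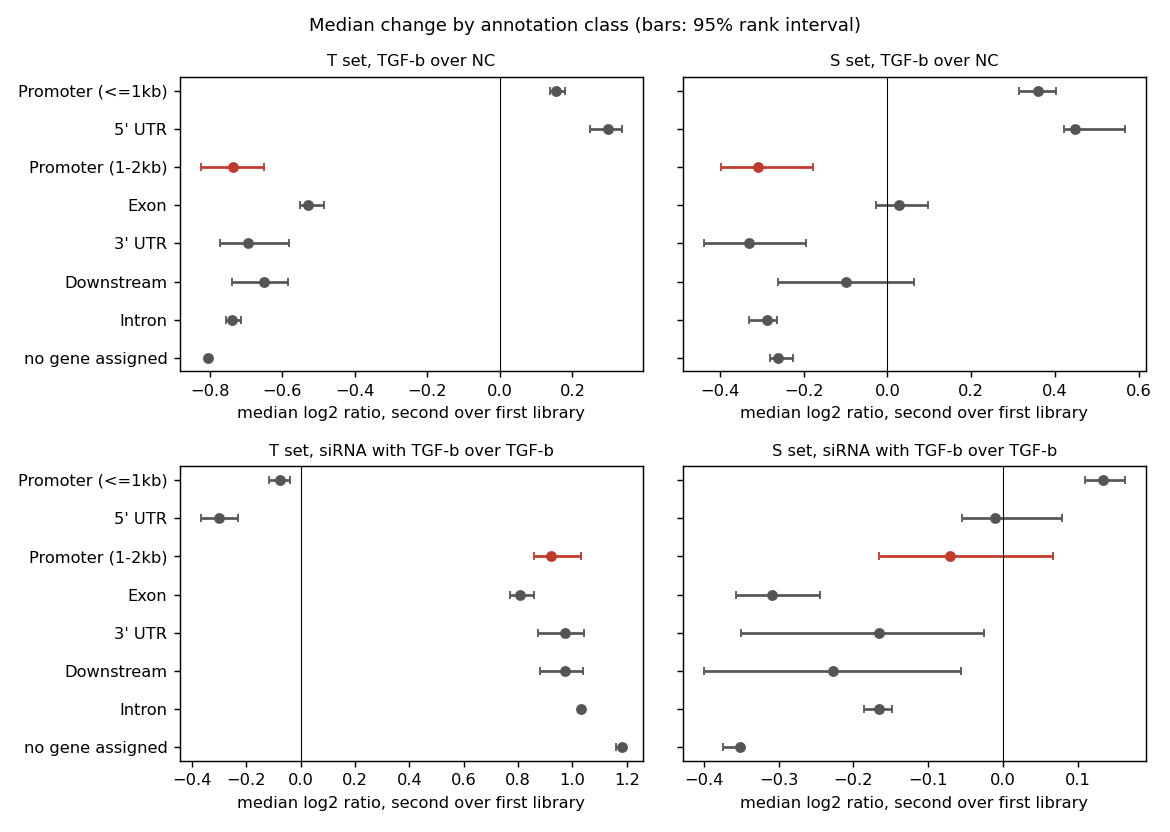
Median log2 ratio of the second over the first library (x axis) for each annotation class (y axis) in the 4 tables, with 95% rank intervals. The class 1 to 2 kb upstream (red) lies at -0.74 and 0.92 in the T set, beside introns and away from the core promoter at 0.16 and -0.08.

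The same holds for the share of regions past 2-fold. In the first T table, 465 of the 2989 upstream regions were higher with TGF-b, 15.6% (14.3 to 16.9), beside 17.3% of all regions of the table, and 1289 were lower, 43.1% (41.4 to 44.9), beside 42.1% of all regions. For siRNA in the T set, 1461 of 3013 were higher with siRNA, 48.5% (46.7 to 50.3), beside 49.7%, and 460 were lower, 15.3%, beside 16.2%. In the first S table, 141 of 732 were higher, 19.3% (16.6 to 22.3), beside 17.4%, and 213 were lower, 29.1% (25.9 to 32.5), beside 26.7%. In the second S table, 135 of 757 were higher, 17.8% (15.3 to 20.7), beside 15.1%, and 196 were lower, 25.9% (22.9 to 29.1), beside 27.8%. With the authors' line undone the first S table had 32.4% higher and 17.8% lower, so the balance of directions turned. These shares lie near the background of each table, which the intervals include in 6 of the 8 cases. The exceptions were the higher shares in the first T table, 15.6% against 17.3%, and in the second S table, 17.8% against 15.1%. In the core promoter the lower share was 18.3% in the first T table and the higher share 22.2% in the second. Of single regions, 399 of the first T table had a counting interval wholly above 0, 980 wholly below and 1610 spanning 0. The first of these make 13.3% of the class and the second 32.8%, beside 14.8% and 31.1% of all regions. In the first S table the counts were 98, 149 and 485, with 13.4% above and 20.4% below, beside 11.5% and 19.2% of all regions.

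Most upstream regions had been called as a peak in 1 library of the pair and not in the other, and the sign of the median ratio went with that call. In the first T table, 144 regions (4.82%) were called in both libraries, 2156 (72.1%) in NC-T only and 689 (23.1%) in T-T only. Over all regions of the table these shares were 5.42%, 68.9% and 25.7%, and 26.2% of core promoter regions were called in both. Regions called in NC-T only had a median log2 ratio of -1.23, those called in T-T only 1.48, and those called in both -0.13 (-0.26 to 0.047). For siRNA in the T set the 115 regions called in both had a median of 0.090 (-0.087 to 0.32), while 2180 (72.4%) were called in SI-T only, beside 70.5% of all regions. In the S set 5 and 17 regions were called in both libraries, 0.68% and 2.25% of the class beside 2.19% and 3.90% of all regions. A peak call and the read count it rests on are not independent, and the scaling centres regions called in both libraries, so the split by call is a description. In the T set and in the first S table the sign of the median went with the library that had more calls, whereas in the second S table, 304 regions (40.2%, beside 45.3% of all regions) were called in T-S only and 436 (57.6%, beside 50.8%) in SI-S only at a median of -0.071. The part of the calls in the medians was not tested. Reads summed over the nuclear regions of a table were 2065510 in NC-T against 1405313 in T-T, and 535083 in NC-S against 682751 in T-S.

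From core promoter to flank the medians passed over several bins, except for siRNA in the S set. In the first T table the median log2 ratio was 0.32 (0.29 to 0.35) within 250 bp upstream of the start, -0.38 (-0.52 to -0.29) at 750 to 1000 bp, -0.69 (-0.83 to -0.53) at 1000 to 1250 bp and -0.65 (-0.83 to -0.52) at 1750 to 2000 bp. Median density in T-T was 12.2, 4.29, 3.71 and 3.27 reads per kb in the same bins. For siRNA in the T set it went from -0.25 (-0.28 to -0.22) within 250 bp to 0.61 (0.45 to 0.71), 0.77 (0.68 to 0.86) and 0.94 (0.81 to 1.16). The S set ran from 0.42 (0.38 to 0.45) to -0.48 (-0.87 to -0.29) for TGF-b over NC, and from 0.17 (0.14 to 0.20) to -0.09 (-0.31 to 0.13) for siRNA with TGF-b over TGF-b. In the latter the median was already -0.08 (-0.20 to 0.07) at 250 to 500 bp. Just outside the limit, at 950 to 1000 bp, the 177 regions of the first T table had a median of -0.31, and just inside, at 1000 to 1050 bp, the 194 regions had -0.81, with intervals that overlapped (-0.53 to -0.02 and -1.03 to -0.44). The same bins gave 0.78 and 0.82 for siRNA in the T set.

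**Figure D2:**
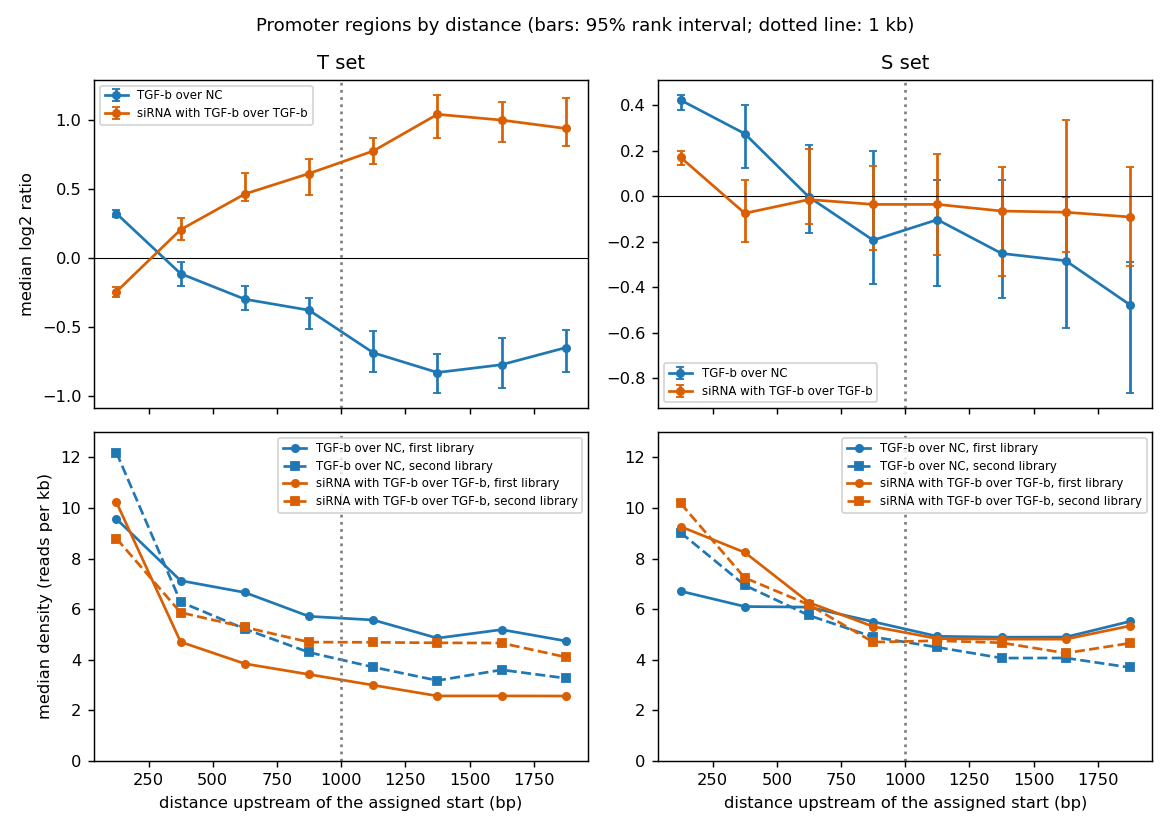
Median log2 ratio (upper row, with 95% rank intervals) and median density in reads per kb (lower row) of promoter regions in 250 bp bins of distance upstream of the assigned start, for the T set (left) and the S set (right). The dotted line marks 1 kb; in the T set the medians pass from 0.32 and -0.25 beside the start to -0.65 and 0.94 at 1750 to 2000 bp.

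The 2989 regions of the first T table were assigned to 2728 genes, of which 244 had more than 1 region, with Itsn1, a scaffold protein of endocytosis, holding the largest number (5). The S tables assigned 715 and 737 genes. A core promoter region of the same gene was listed for 37.4% (35.6 to 39.2) of the genes in the first T table, 34.5% in the second, and 10.3% and 13.7% in the S tables. Core promoter regions named 8421 and 8213 genes in the T tables, against 2948 and 4167 in the S tables. Whether the companion shares follow the length of these lists was not tested. Upstream regions with such a companion had a median log2 ratio of -0.83 (-0.93 to -0.65) in the first T table and those without had -0.69 (-0.80 to -0.60), so the intervals overlapped. Protein-coding genes made up 75.4% of the matched genes in the first T table and 75.3% (71.9 to 78.3) in the first S table, against 84.9% and 87.8% of core promoter genes. Long intergenic RNA genes made up 13.7% and 14.7%, against 7.51% and 6.41% of core promoter genes.

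Many of the regions named as promoter lay inside the gene they were assigned to, because the assigned transcript starts further into the gene than its first annotated start. Positions of transcript starts within a gene were taken from GENCODE on GRCm38, where 94.7% to 96.2% of the regions of a table had a match, a step added after values were seen, and the distance within a gene was assumed equal in the build of the tables. By that measure 1245 of 2840 matched regions of the first T table lay downstream of the gene's first start, 43.8% (42.0 to 45.7), at a median of 25.6 kb. The shares were 42.7% in the first S table, 44.0% in the second T table and 44.1% in the second S table. Among core promoter regions of the first T table the share was 37.2% (36.2 to 38.1). Upstream regions inside a gene had a median log2 ratio of -0.85 (-0.96 to -0.69) and those before its first start -0.66 (-0.80 to -0.57), with intervals that overlapped. In core promoters of the same table the medians were -0.03 (-0.08 to 0.00) and 0.25 (0.22 to 0.28), with intervals that did not. Regions named below that also lay inside the gene include Mrtfa (84.5 kb), Flt1 (77.7 kb), Ptpn14 (57.2 and 56.4 kb) and Thbs2 (21.6 kb). Others are Stk3 (21.5 kb), Myh6 (20.8 kb), Tnnt2 (11.2 kb) and Pdlim7 (3.17 kb). The position is not given for every region, so its absence does not place a region before the gene.

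Among genes of the SRF programme, 9 of the 36 list genes named in the tables had an upstream region in the first T table, of which 1 was higher (11.1%, beside 17.3% of all regions) and 2 were lower (22.2%, beside 42.1%). Their median ratio was -0.065 on the log2 scale, beside -0.65 for all regions. Pdlim7, a PDZ and LIM domain protein of actin filaments, had 48 reads in NC-T and 88 in T-T at chr13:55658282-55658355, a log2 ratio of 0.81 (0.32 to 1.33). Srf itself had 23 and 51 reads at chr17:46864538-46864623, a log2 ratio of 1.12 (0.45 to 1.85), and this region lay 2.52 kb into the gene. Junb, an AP-1 subunit, had 32 and 60 reads at chr8:85706754-85707016, a log2 ratio of 0.87 (0.27 to 1.5). The intervals of these 3 regions lay above 0, and those of Pdlim5 (8 and 0 reads) and Tgfb1i1 (9 and 1 reads) lay below 0. Tagln, which encodes the smooth muscle actin-binding protein transgelin, had 23 and 33 reads at chr9:45848335-45848499, with a log2 ratio of 0.52 whose interval spanned 0 (-0.22 to 1.30), and 28 reads in SI-T. For TGF-b over NC the Pdlim7, Srf, Junb and Tagln regions were called as peaks in NC-T and not in T-T, although T-T had more reads in each. The Pdlim7 region of the second T table had 95 reads in T-T and 52 in SI-T, with a log2 ratio of -0.37 (-0.87 to 0.10). In the S set, read here as the SRF profile, only Myh11 (6 reads in NC-S and 7 in T-S) had an upstream region for TGF-b over NC, against 10 list genes with a core promoter region. Over all genes of the first S table, 715 had an upstream region and 2948 a core promoter region. Junb had 5 reads in T-S and 20 in SI-S, a log2 ratio of 1.90 (0.73 to 3.46), and Myh11, the other list gene of that table, had 7 and 0.

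Among TAZ and TEAD target genes, 6 of 25 had an upstream region in the first T table, against 17 with a core promoter region, and 1 of their 8 regions was higher and 4 were lower (12.5% and 50%, beside 17.3% and 42.1% of all regions), with a median of -1.03 on the log2 scale. Over all genes of the first T table, 2728 had an upstream region and 8421 a core promoter region. Gadd45b, a growth arrest gene, had 29 reads in NC-T and 14 in T-T, a log2 ratio of -0.95 (-1.91 to -0.10). Tead1, a DNA-binding partner of TAZ, had 2 neighbouring regions over 158 kb into the gene, each with 20 and 5 reads and a log2 ratio of -1.70 (-3.26 to -0.53), whose windows overlap and share reads, and a further region with 5 and 6 reads. Axl, a receptor tyrosine kinase, had 9 and 10 reads with a log2 ratio of 0.25 (-0.99 to 1.52). Ptpn14, a phosphatase that restrains YAP, was the higher region of the list, with 1 read in NC-T and 11 in T-T, a log2 ratio of 2.77 (1.05 to 6.23). The same region had 17 reads in SI-T and a neighbouring one, whose window shares reads with it, had 7 in T-T and 17 in SI-T, log2 ratios of 1.05 (0.023 to 2.16) and 1.63 (0.51 to 2.97). No gene of this list had an upstream region in the first S table, where the whole class named 715 genes. An absence in a list of this size was not read as a result, here or for the lists below. Of the Hippo and SRF cofactors, 5 of 25 genes had 7 regions in the first T table, of which 6 were lower and none higher, beside 42.1% and 17.3% of all regions, with a median of -1.55 on the log2 scale. The overlapping Tead1 regions with the same reads are 2 of those 6. Mrtfa had 19 and 8 reads, a log2 ratio of -1.06 (-2.32 to 0.00), and Elk4 had 12 and 3, a log2 ratio of -1.55 (-3.57 to -0.13). With siRNA in the T set Stk3, a Hippo kinase, had 11 and 22 reads, a log2 ratio of 1.40 (0.44 to 2.49).

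Among TGF-b pathway genes, 5 of 28 had an upstream region in the first T table. Smad6, an inhibitory SMAD induced by BMP and TGF-b signals, had 10 reads in NC-T and 44 in T-T at chr9:63930274-63930520, which is 1056 bp from its start, a log2 ratio of 2.08 (1.21 to 3.15). In SI-T this region held 40 reads, and the ratio to T-T was 0.35 (-0.27 to 0.96), so T-T and SI-T were not told apart at this depth. Id1, a BMP target and inhibitor of bHLH factors, had 34 reads in NC-T, 30 in T-T and 8 in SI-T at chr2:152576928-152577208. Its log2 ratio was -0.17 (-0.87 to 0.53) for TGF-b over NC and -1.32 (-2.54 to -0.34) for siRNA with TGF-b over TGF-b. Ltbp3, which stores latent TGF-b in the matrix, had 25 and 11 reads, a log2 ratio of -1.05 (-2.12 to -0.12). Acvrl1, a type I receptor of the family, had 21, 15 and 13 reads in NC-T, T-T and SI-T, and both its intervals spanned 0.

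Matrix genes gave few regions, and those in the S set were low in NC-S. In the first T table, 6 of 28 genes had 8 regions, of which none was higher and 3 were lower (37.5%, beside 42.1% of all regions). Fap, a serine protease of activated fibroblasts, had 18 reads in NC-T and 2 in T-T, a log2 ratio of -2.52 (-4.98 to -1.07), and another Fap region had 5 and 4, a log2 ratio of -0.091 (-1.93 to 1.63). Col5a1, a chain of type V collagen, had 14 and 4 reads, a log2 ratio of -1.45 (-3.21 to -0.15), and lay 129.79 kb into the gene. A neighbouring Col5a1 region of the S set, at chr2:27905741-27906023, had 4 reads in NC-S, 21 in T-S and 6 in SI-S, with log2 ratios of 1.56 (0.34 to 3.29) and -1.56 (-2.98 to -0.45). Mmp2, a gelatinase, had 1, 15 and 2 reads in the same libraries at chr8:93569107-93569439, with log2 ratios of 2.40 (0.74 to 5.87) and -2.29 (-4.75 to -0.81), and lay 15.35 kb into the gene. In both regions T-S was the high library, and the 2 comparisons of the set share it, so a high count there raises the first ratio and lowers the second. The Thbs2 region had 10, 14 and 3 reads in NC-T, T-T and SI-T, with log2 ratios of 0.54 (-0.56 to 1.72) and -1.45 (-3.47 to -0.07).

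Piezo2, a mechanically gated ion channel, had an upstream region in the S set at chr18:63187190-63187336. It held 2 reads in NC-S, 20 in T-S and 4 in SI-S, log2 ratios of 2.22 (0.79 to 4.68) and -1.97 (-3.70 to -0.74), and lay 332.99 kb into the gene. It was called as a peak in T-S and not in NC-S or SI-S, and here too both ratios share the T-S count. No Piezo2 region of this class was listed in the T set. Piezo1, its relative, had 5, 16 and 11 reads in NC-T, T-T and SI-T, with a log2 ratio of 1.62 (0.40 to 3.19) for TGF-b over NC and -0.04 (-1.16 to 1.01) for siRNA with TGF-b over TGF-b. This Piezo1 region lay 50.3 kb into the gene. Tet3, a methylcytosine dioxygenase, had 7 and 7 reads in NC-T and T-T, and another region with 0 in T-T and 4 in SI-T. Dnmt3a, a DNA methyltransferase, had 11 reads in NC-T and none in T-T, at least 3.16-fold lower, in a region 99.7 kb into the gene.

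Among lineage factors of cardiac fibroblasts, Gata4, a cardiac zinc finger factor, had 2 regions that went opposite ways in the first T table. The region before its first start had 35 reads in NC-T and 10 in T-T, a log2 ratio of -1.66 (-2.75 to -0.76), and the region 24.83 kb into the gene had 3 and 12, a log2 ratio of 1.85 (0.43 to 3.87). Pdgfrb, a receptor of mural cells and fibroblasts, had 20 and 7 reads, a log2 ratio of -1.30 (-2.63 to -0.21), and the collagen receptor Ddr2 had 20 and 13, a log2 ratio of -0.52 (-1.54 to 0.44). Wt1, an epicardial factor, had an overlapping region in all 4 tables, 34.67 kb into the gene. It held 10, 4 and 19 reads in NC-T, T-T and SI-T and 6, 17 and 5 in NC-S, T-S and SI-S. The T-T count was the lowest of its set and the T-S count the highest of its set. For TGF-b over NC both Wt1 intervals spanned 0, at -0.99 (-2.77 to 0.41) in T and 0.79 (-0.37 to 2.23) in S. For siRNA with TGF-b over TGF-b the log2 ratios were 2.46 (1.22 to 4.20) in T and -1.48 (-3.05 to -0.28) in S.

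Regions of genes that mark other cells were few. The endothelial cadherin Cdh5 had 23 and 7 reads in NC-T and T-T, a log2 ratio of -1.50 (-2.82 to -0.44), and Flt1 had 14 and 7, while none of the 12 endothelial genes had an upstream region in the other 3 tables. Of 13 cardiomyocyte genes, Myh6 had 3 reads in T-T and 10 in SI-T, a log2 ratio of 1.91 (0.44 to 3.94), while Ttn had 12 and 6 and Ryr2 had 7 and 4, with intervals that spanned 0. The troponin gene Tnnt2 had 1 in T-S and 18 in SI-S, a log2 ratio of 3.38 (1.75 to 6.86). Of 9 macrophage genes only C1qb had a region, with 4 and 1 reads. Occupancy 1 to 2 kb from a start does not measure expression, and whether other cells contributed was not tested. Of 16 fibroblast genes, 4 had an upstream region and 6 a core promoter region in the first T table, so the class does not check the label of the cells. Of the cell cycle genes, the cyclin Ccne1 had no read in T-T and 13 in SI-T, at least 5.9-fold higher.

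**Figure D3:**
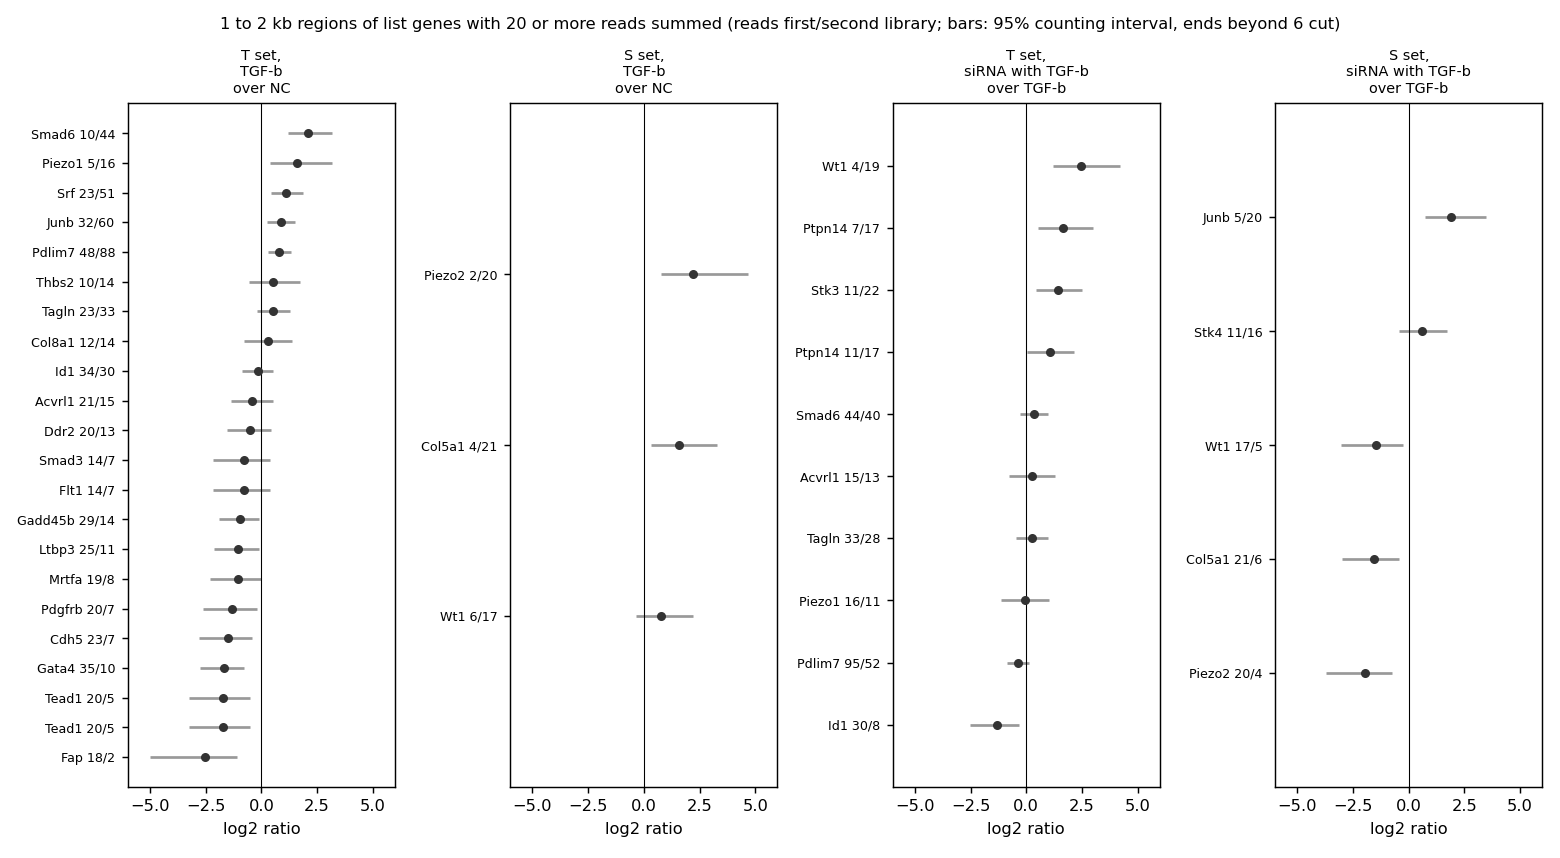
Log2 ratio of second over first library (x axis) for the regions 1 to 2 kb upstream of list genes with at least 20 reads summed over both libraries, with 95% counting intervals; the labels on the y axis give the gene and its reads in the first and second library. Smad6 at 2.08 and Fap at -2.52 are the ends of the first T table, and Piezo2 is at 2.22 and -1.97 in the S tables.

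The regions with the largest ratios by the interval bound nearest 0 had few or no reads in 1 library. In the first T table Asic1, an acid-sensing channel, had 0 reads in NC-T and 20 in T-T, at least 7.6-fold higher, and Zfp219 and Ramp1 each had 0 and 19. The gene 9930012K11Rik had 1 and 31, a log2 ratio of 4.14 (2.56 to 7.63). Gm44948 and Gm34078 each had 33 reads in NC-T and 0 in T-T, at least 9.8-fold lower, and Tfec had 29 and 0. With siRNA in the T set Podxl2 had 0 reads in T-T and 35 in SI-T, at least 15.9-fold higher, followed by Tfec (0 and 34), the orphan receptor Nr2f2 (0 and 27) and Slc5a9 (0 and 26). Lower with siRNA were Sestd1 (31 and 0 reads), Spink13 (30 and 0), the glutamine transporter Slc1a5 (24 and 0) and Gm57050 (24 and 0). In the first S table Hoxa5, a homeobox factor of axial patterning, had 3 reads in NC-S and 38 in T-S at chr6:52182681-52182858, a log2 ratio of 2.72 (1.48 to 4.70), and 22 in SI-S. Clpsl2 had 1 and 30 reads there, Lypd6b 1 and 26, and Hcls1 0 and 18. Aff4, a scaffold of elongation complexes, and Dennd10 each had 11 reads in NC-S and 0 in T-S, at least 5.63-fold lower, while Gm47541 had 9 and 0 and Mkrn1 13 and 1. In the second S table Itpr1, a calcium release channel, had 0 and 15 reads, Vmn1r234 0 and 13 and Gm29461 0 and 11, while Gm49714 had 17 and 0, Gm15326 15 and 0, Pear1 13 and 0 and Unc5cl 19 and 1.

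The deepest regions were chosen by their lowest count over the 3 libraries, which favours ratios near 0. In the T set 951 pairs of overlapping regions joined the 2 tables, and 173 of them had at least 10 reads in all 3 libraries. Apart from the mitochondrial region, the deepest were Gm56649 (122, 103 and 164 reads in NC-T, T-T and SI-T), Asb5 (104, 88 and 79), Lexis1 (68, 74 and 73) and Fbrs (85, 100 and 56). For TGF-b over NC they lay between -0.35 and 0.15 on the log2 scale, and every interval spanned 0. For siRNA with TGF-b over TGF-b Gm56649 was at 1.16 (0.81 to 1.52) and Lexis1 at 0.47 (0.0048 to 0.93), while the intervals of Asb5 and Fbrs spanned 0. Gm6793, next in depth and outside the naming rule, had 119, 55 and 53 reads and a log2 ratio of -1.17 (-1.65 to -0.73). In the S set, where 343 pairs were joined, the deepest nuclear regions were Gm37696 (24, 30 and 50 reads in NC-S, T-S and SI-S), Mfap2 (20, 29 and 25), Col26a1 (17, 42 and 21) and Apba2 (16, 19 and 23), none with an interval that excluded 0 for TGF-b over NC. For siRNA with TGF-b over TGF-b Gm37696 was at 0.74 (0.11 to 1.40) and Col26a1 at -0.93 (-1.71 to -0.22). A region on the mitochondrial genome, chrMT:215-1437, is listed in this class because its centre lies 1925 bp before mt-Nd1, and it falls where the genome encodes ribosomal RNA. It held 203844, 468102 and 199973 reads in the T set, so it was kept in the counts and left out of the distance bins.

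The T and S sets share no library, so their regions can be set side by side. For TGF-b over NC 75 T regions overlapped an S region of the class by at least 1 bp, 2.51% of the T regions, and 72 S regions did so, 9.84% of the S regions. For siRNA with TGF-b over TGF-b these were 87 (2.89%) and 85 (11.2%). Over all nuclear regions the shares were 3.97% and 12.6% for TGF-b over NC and 4.68% and 15.9% for siRNA with TGF-b over TGF-b. By gene, 178 were shared for TGF-b over NC, 6.52% of the T genes and 24.9% of the S genes. No share of genes over all regions stands beside these, so they were not read as a result. Of the 74 nuclear pairs for TGF-b over NC, 1 was at least 2-fold higher in both sets, 9 lower in both, 2 higher in T and lower in S, and 2 the reverse. The 9 make 12.2% of the pairs, beside 10.6% of the 1833 pairs of introns and 7.15% of the 6838 pairs over all nuclear regions. The pair higher in both makes 1.35%, beside 4.28% over all nuclear regions, and each of the opposite counts makes 2.70%, beside 3.06% and 2.52%. Of the 86 nuclear pairs for siRNA with TGF-b over TGF-b these counts were 3, 2, 7 and 2, or 3.49%, 2.33%, 8.14% and 2.33%, beside 3.70%, 2.30%, 4.30% and 3.65% over all nuclear regions, and the 7 stand beside 5.94% of intron pairs. The regions whose counting intervals excluded 0 in both sets were picked after their values were seen. For TGF-b over NC the intervals lay below 0 in both sets at Taar1, Gm56913, 4930480K15Rik, Gm29863, Blnk and Kctd19. They lay above 0 in both at Fbxo11, whose log2 ratio in T was 0.95, short of 2-fold. Kctd19 had 49 and 17 reads in NC-T and T-T and 22 and 5 in NC-S and T-S. Blnk, an adaptor of B cell receptor signals, had 43 and 14, and 22 and 12. Fbxo11, a ubiquitin ligase subunit, had 19 and 37, and 10 and 34. For siRNA with TGF-b over TGF-b the intervals of the mitochondrial fusion gene Mfn2 lay below 0 in both sets, with 52 and 21 reads in T-T and SI-T and 23 and 5 in T-S and SI-S. Its log2 ratio in T was -0.79, short of 2-fold. The intervals of Trio and Accsl also lay below 0 in both sets, and those of Fut9 above 0 in both.

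**Figure D4:**
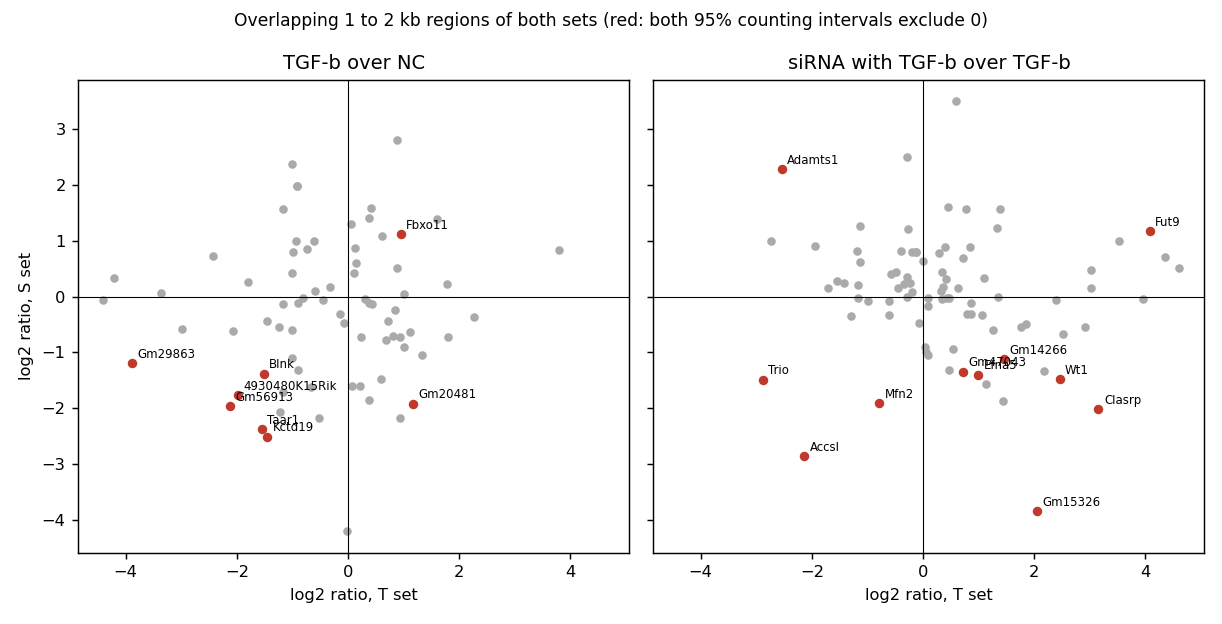
Log2 ratio in the T set (x axis) against the S set (y axis) for overlapping nuclear regions of the class, for TGF-b over NC (left, 74 pairs) and siRNA with TGF-b over TGF-b (right, 86 pairs). Red points, named by gene, are regions whose 95% counting interval excludes 0 in both sets; on the left 6 lie at the lower left, and on the right 6 lie at the lower right and 1, Adamts1, at the upper left.

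In all, 32 T regions overlapped regions of the class in all 4 tables, and 31 of them were nuclear. By lowest read count over the 6 libraries the leading nuclear regions were Apba2, Gm14641, Abca4, Fbrs, Asb5, Fbxo11 and Atp5mc2. Apba2, a neuronal adaptor, had intervals that spanned 0 in all 4 tables, with 25, 22 and 21 reads in NC-T, T-T and SI-T and 16, 19 and 23 in NC-S, T-S and SI-S. Abca4, a lipid transporter, had 16, 35 and 46, then 17, 16 and 12, so it was lowest in NC-T of its set and had no interval excluding 0 in the S set. Atp5mc2, a subunit of ATP synthase, had 79, 109 and 34, with a log2 ratio of -1.17 (-1.75 to -0.64) for siRNA with TGF-b over TGF-b, and 10, 14 and 13 in the S set. Gata3, a zinc finger factor whose start site is printed above, had 33, 34 and 16 reads in the T set and 5, 21 and 27 in the S set, and is named here after its values were seen.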

How the data were processed

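Primary mouse cardiac fibroblasts had been profiled by CUT&Tag in 6 libraries. The study's methods name Bowtie2 and GRCm39, while the submitters' processing notes name BWA 0.7.12 and mm10; of 47510 transcripts of the tables found in the GRCm38 annotation, 886 start at the same coordinate, so coordinates are given as in the tables and no sequence was read by them. The authors deposited the signal as normalized read density, with peaks called per library, merged by pair and rescaled along a straight line that centres regions called in both libraries; their fold change, average and p-value columns were not used. Undoing the line gave whole reads, within 0.1, for at least 99.97% of regions. From these, log2 ratios, Wilson intervals and rank intervals were computed with Python 3.11.15, numpy 2.4.6 and pandas 2.3.3, after a test on simulated data. With 1 library per group no test was possible. Depth per library is not given in the files. Genes were named by 4 rules: at most 4 regions per list with at least 10 reads, 4 per direction by interval bound, the 5 deepest per set and up to 8 in all 4 tables. A region that these rules name is not reported here. Members and lists were chosen with earlier results of these data known. The alternatives tried are in the closing section.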

Additional observations from a re-analysis of the deposited data

Results flagged for a closer look

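Of overlapping regions held by both sets, 8 had counting intervals on opposite sides of 0 in the T and S sets, which is what drew attention to them; the difference itself was not tested, and each value rests on 1 library per group. For TGF-b over NC this was 1 of 74 nuclear pairs. For siRNA with TGF-b over TGF-b, 6 of 86 were above 0 in T and below in S, and 1 was the reverse. No share by this measure over all regions stands beside these counts. For TGF-b over NC, Gm20481 had a log2 ratio of 1.17 for T and -1.92 for S. For siRNA with TGF-b over TGF-b, the T and S values were -2.54 and 2.28 at Adamts1, 2.46 and -1.48 at Wt1, 3.16 and -2.01 at Clasrp, 2.04 and -3.84 at Gm15326, 1.0 and -1.40 at Efna5, 1.47 and -1.12 at Gm14266, and 0.72 and -1.35 at Gm47043. Adamts1, a secreted metalloprotease, had 23 reads in T-T and 2 in SI-T, then 3 in T-S and 17 in SI-S. Efna5, a membrane-bound guidance ligand, had 29 and 42, then 32 and 11. The median over the class for that comparison was 0.92 for T and -0.071 for S, whose interval spans 0, and this difference was not tested either.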

How the results depend on the processing

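The values below are those that left the interval of the reported value; T and S name the sets, and siRNA stands for siRNA with TGF-b over TGF-b. Relative to the median over every region of the table, the higher share was 24.6% (T, TGF-b over NC), 23.9% (S, TGF-b over NC), 26.2% (T, siRNA) and 23% (S, siRNA); the lower share was 27.1% (T, TGF-b over NC), 24.5% (S, TGF-b over NC), 29.2% (T, siRNA) and 20.3% (S, siRNA); the median was -0.086 (T, TGF-b over NC), -0.11 (S, TGF-b over NC), -0.050 (T, siRNA) and 0.14 (S, siRNA). With the authors' line undone, the higher share was 32.4% (S, TGF-b over NC) and 38.7% (T, siRNA); the lower share was 48% (T, TGF-b over NC), 17.8% (S, TGF-b over NC), 21.2% (T, siRNA) and 29.5% (S, siRNA); the median was -0.85 (T, TGF-b over NC), 0.26 (S, TGF-b over NC), 0.46 (T, siRNA) and -0.17 (S, siRNA). At 1.5-fold, the higher share was 20.6% (T, TGF-b over NC), 28.3% (S, TGF-b over NC), 58.8% (T, siRNA) and 28.9% (S, siRNA); the lower share was 53.5% (T, TGF-b over NC), 41.7% (S, TGF-b over NC), 19.7% (T, siRNA) and 35.1% (S, siRNA). At 4-fold, the higher share was 9.4% (T, TGF-b over NC), 4.78% (S, TGF-b over NC), 26.1% (T, siRNA) and 6.08% (S, siRNA); the lower share was 20.6% (T, TGF-b over NC), 9.84% (S, TGF-b over NC), 9.16% (T, siRNA) and 8.06% (S, siRNA). Among regions above the median mean density, the higher share was 11.2% (T, TGF-b over NC), 15.3% (S, TGF-b over NC), 45.8% (T, siRNA) and 9.41% (S, siRNA); the lower share was 39% (T, TGF-b over NC), 21.4% (S, TGF-b over NC), 11% (T, siRNA) and 21.2% (S, siRNA); the median was 0.84 (T, siRNA). With reads of 3 or fewer set to 3, the higher share was 13.8% (T, TGF-b over NC) and 41.4% (T, siRNA); the lower share was 38.4% (T, TGF-b over NC) and 10.7% (T, siRNA); the median was -0.59 (T, TGF-b over NC) and 0.82 (T, siRNA). Among regions called in both libraries, the higher share was 4.86% (T, TGF-b over NC), 0% (S, TGF-b over NC), 10.4% (T, siRNA) and 0% (S, siRNA); the lower share was 11.1% (T, TGF-b over NC), 0% (S, TGF-b over NC), 7.83% (T, siRNA) and 17.6% (S, siRNA); the median was -0.13 (T, TGF-b over NC), 0.093 (S, TGF-b over NC) and 0.090 (T, siRNA). Among regions with no other centre within 2 kb, the higher share was 17.7% (T, TGF-b over NC); the lower share was 16.8% (T, siRNA). The reported median of the first S table, -0.31, thus changed sign with the line undone and among the 5 regions called in both libraries, and the reported medians of the second T table, 0.92, and the second S table, -0.071, changed sign when centred; the cause was not tested beyond the construction of these settings. Keeping 1 region per gene or autosomes only left every share and median within its interval, keeping upstream regions only removed none and so tested nothing, and an overlap of 50% of the shorter region gave 61 and 72 T regions shared with the S set. A motif count in a window of the regions was not run, because no genome of the build of the tables was at hand. No paired analysis was possible because each group has 1 library. Depth limits single regions: with median reads of 5 to 10 per window, the counting interval spanned 0 for 1610 of the 2989 regions of the first T table.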

Other observations

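Olfactory and vomeronasal receptor genes, which are mostly silent outside sensory tissue, held 91 upstream regions in the first T table, with a median log2 ratio of -0.87 (-1.25 to -0.53), and 91 in the second, with 1.26 (0.87 to 1.76). In the S tables they held 29 and 24, with medians of -0.47 (-1.11 to 0.23) and -0.04 (-0.85 to 0.62). In every table the interval included the median of the whole class, so they could not be told from the rest of it. Homeobox factor genes, chosen after their values were seen, held 9 upstream regions in each S table, with medians of 0.80 for TGF-b over NC and -0.93 for siRNA with TGF-b over TGF-b, against 16 and 15 regions with medians of -0.18 and 0.65 in the T tables; the 2 comparisons share T-S, and 3 of 9 were at least 2-fold higher in the first (33.3%, beside 17.4% of all regions) and 3 of 9 at least 2-fold lower in the second (33.3%, beside 27.8%). Homeobox regions of all annotation classes had medians of 0.36 and -0.46, in the S tables, so the direction there was not particular to the upstream regions.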
